A study of Mus musculus with 8 samples.

Results

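The microRNA (miRNA) loci Mir128-1, Mir128-2, Mir7b, Mir218-1 and Mir218-2, which make the brain miRNAs miR-128, miR-7b and miR-218, were examined in a ribosome profiling experiment on mouse brain. They were the rows of the deposited gene count table with miRNA biotype and 1 of these names, 5 of 2207 miRNA loci and of 54532 genes of every class. They were chosen by their shares of the miRNA counts in these footprint libraries and their known role in neurons, so the shares are given as a description without a test. Mir218-1 belongs to the set as the other copy of miR-218 and not for a large share. The tissue was brain from male mice aged 3 months, of genotype WT or Nsun5-KO (KO). Nsun5 is an enzyme that methylates a cytosine of ribosomal RNA. How the gene was inactivated is not given in the sources used here. No transgene, Cre driver or treatment is named, and the protocol describes littermates, 5 mice per genotype. There were 4 WT and 4 KO footprint libraries, made from RNA left after nuclease digestion of the lysate and isolation of ribosomes, and 8 mRNA libraries with matching names. Which animal a library came from is not stated. The p-values set the difference between the groups against the spread of libraries within a group, and that spread may be technical. Where 4 values stand in a row for a group, they are those of its libraries 1 to 4 in that order.

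A miRNA is cut from a hairpin by Drosha and Dicer, and 1 arm of the hairpin is loaded into an Argonaute protein, where its seed (bases 2 to 8) pairs with target mRNAs. It is not translated, so a miRNA count in a footprint library is a small RNA recovered with the ribosome fraction and not a measure of translation. miR-128 is known as a neuron-enriched miRNA that restrains neuronal excitability, and its copies lie in introns of R3hdm1 and Arpp21. miR-7 is known from neuroendocrine tissue such as the hypothalamus and for its decay through the long noncoding RNA Cyrano. miR-218 is known from motor neurons and its copies lie in introns of the axon guidance genes Slit2 and Slit3.

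The mature sequences came from RefSeq (mouse build GRCm38.p6, which is mm10), where all 5 loci had an entry, as did 1036 of the 2207 miRNA rows. They are shown because the loci of a family differ in which copies can be told apart by their reads. The capitals mark the seed, 5′ to 3′.

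miR-128-3p (Mir128-1 and Mir128-2): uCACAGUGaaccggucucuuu

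miR-7b-5p (Mir7b): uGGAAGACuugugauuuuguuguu

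miR-7a-5p (Mir7-1 and Mir7-2): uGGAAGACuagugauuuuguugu

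miR-218-5p (Mir218-1 and Mir218-2): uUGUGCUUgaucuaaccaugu

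The mature miR-128-3p is identical at both miR-128 loci, and so is miR-218-5p at both miR-218 loci. Mir7b differs from its relatives. Counted from the 5′ end, miR-7a-5p and miR-7b-5p have 1 substitution, A10U, outside the seed, and miR-7b-5p is 24 rather than 23 bases long. The seed CACAGUG belongs to 1 of 1679 mature mouse miRNA names in the reference, GGAAGAC to 2 (miR-7a-5p and miR-7b-5p) and UGUGCUU to 2 (miR-218-5p and miR-7002-3p, whose locus Mir7002 had 1 count in all 8 footprint libraries).

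The other arms of the hairpins differ between the copies. In the hairpins below, the capitals mark the longest run that both copies share.

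Mir128-1 hairpin: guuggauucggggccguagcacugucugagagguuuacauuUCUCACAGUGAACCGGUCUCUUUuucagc

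Mir128-2 hairpin: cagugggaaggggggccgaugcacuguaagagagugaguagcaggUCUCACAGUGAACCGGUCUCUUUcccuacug

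Mir218-1 hairpin: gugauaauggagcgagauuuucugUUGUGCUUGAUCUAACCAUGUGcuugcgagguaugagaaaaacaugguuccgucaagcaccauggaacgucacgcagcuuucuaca

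Mir218-2 hairpin: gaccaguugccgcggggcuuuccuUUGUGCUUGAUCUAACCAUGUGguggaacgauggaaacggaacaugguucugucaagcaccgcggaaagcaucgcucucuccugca

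The shared run is 23 bases for miR-128, the 21 bases of the mature arm and 2 before it, and 22 bases for miR-218, the 21 mature bases and 1 after them. A read that lies within the shared run fits both copies equally. How the authors' counting placed such reads is not given in the sources used here, and the gene counts do not separate the arms or the read lengths. The split of counts between the copies is therefore uncertain, and the family sum would be affected too if such reads were dropped or counted at each locus.

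In mm10, Mir128-1 (ENSMUSG00000065520) lies at chr1:128202361-128202430 on the plus strand, inside R3hdm1 on the same strand. Mir128-2 (ENSMUSG00000065441) lies at chr9:112118636-112118711 on the minus strand, inside Arpp21 on the same strand. Mir218-1 (ENSMUSG00000065603), at chr5:48223942-48224051, lies inside Slit2, and Mir218-2 (ENSMUSG00000065583), at chr11:35616816-35616925, inside Slit3, all on the plus strand. Mir7b (ENSMUSG00000065491), at chr17:56242988-56243098 on the plus strand, lies in no gene of the table and starts 182 bases after the end of the long noncoding RNA A230051N06Rik on the same strand. Of the other miR-7 loci, Mir7-1 lies inside Hnrnpk on chromosome 13 and Mir7-2 in no gene on chromosome 7.

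The footprint libraries held 586392 to 3493841 counts on genes, and the KO libraries were shallower (586392 to 1296876 in KO and 1201263 to 3493841 in WT). The miRNAs took 23.0% to 60.3% of them, with the lowest shares in WT library 1 (23.0%) and KO library 2 (24.6%). Nsun5 mRNA was at 5.36, 5.31, 6.31 and 6.23 CPM (counts per M, mega, of the library) in WT and at 6.43, 7.36, 5.17 and 6.26 CPM in KO, so it did not separate the labels (log2 fold change 0.12 ± 0.15 SE, edgeR adjusted p = 0.820). An allele that leaves the transcript in place would not be seen in such counts, and WT and KO denote the groups as labelled throughout. Markers of neurons (5 of 5 genes) and of astrocytes, oligodendrocytes and microglia (11 of 11) were present in both kinds of library, while the 3 muscle and 3 skin markers summed to at most 13.0 and 12.1 CPM in any mRNA library. The blood markers summed to 65.2 to 217 CPM in mRNA, and the liver markers, which include Ttr of the choroid plexus, to 35.6 to 1103. In mRNA the summed neuron markers lay at 5286 to 5552 CPM in WT and 5867 to 6396 in KO, and the summed oligodendrocyte markers at 6028 to 6586 in WT and 3836 to 5441 in KO. The microglia markers summed to 169 to 180.2 CPM in WT and 152 to 165 in KO. The groups did not overlap in any of these 3 sums in mRNA, while they overlapped in all 3 in footprints. The miRNA counts come from bulk tissue and carry no cell type of their own, and fewer cells of a type cannot be told apart from less RNA per cell.

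The 5 loci together held 44.9% ± 8.24 of the miRNA counts (SD, n = 8) and 20.6% ± 9.06 of all footprint counts. In WT they held 30.6%, 44.8%, 50.7% and 36.5% of the miRNA counts, and in KO they held 52.4%, 41.2%, 53.9% and 48.9%. The groups overlapped, and WT library 1 was the lowest of all. In the mRNA libraries each locus had between 0 and 3 counts per library, so their counts were a feature of the footprint libraries.

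Mir128-1 had rank 1 among the 2207 miRNA loci by mean share. It held 13.7%, 34.8%, 41.0% and 25.6% of the miRNA counts in WT and 39.1%, 25.8%, 38.8% and 35.2% in KO. Of all footprint counts, it took from 3.15% in WT library 1 to 23.6% in KO library 1. In every library but WT library 1 its share was 25.6% or more.

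Mir7b had rank 4 among the miRNA loci. It held 13.7%, 4.56%, 3.20% and 5.08% of the miRNA counts in WT and 6.75%, 10.3%, 8.84% and 8.02% in KO. WT library 1, the lowest library for both miR-128 loci, was the highest for Mir7b, where Mir7b equalled Mir128-1 (37889 and 37880 counts). The groups overlapped, as WT library 1 lay above all 4 KO libraries and the other 3 WT libraries lay below them. Leaving WT library 1 aside would be a choice made after seeing these shares. How many other loci would then separate was not counted, so no difference is read from this order.

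Mir128-2, the second source of miR-128-3p, had rank 7. It held 1.21%, 3.53%, 5.19% and 2.91% in WT and 4.25%, 2.65%, 3.96% and 4.05% in KO. Mir218-2 had rank 8, with 1.93%, 1.89%, 1.32% and 2.87% in WT and 2.28%, 2.38%, 2.27% and 1.61% in KO. The ranges of Mir128-2 and Mir218-2 overlapped, but within a library Mir128-2 was the higher in all except WT library 1 (1.21% against 1.93%). Their means were 3.47% and 2.07%, which differ by less than the spread of Mir128-2 across the libraries, 1.21% to 5.19%.

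Mir218-1 was far lower, at rank 84 between Mir186 and Mir152. Its share was 0.0687%, 0.0634%, 0.0542% and 0.0201% in WT and 0.0397%, 0.0649%, 0.0391% and 0.0306% in KO, from 113 to 1042 counts. No library brought it near any other of the 5 loci. The remaining places among the 10 highest loci were held by Mirlet7g, Mir148a, Mir99a, Mirlet7f-2, Mir146b and Mir541.

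**Figure D1:**
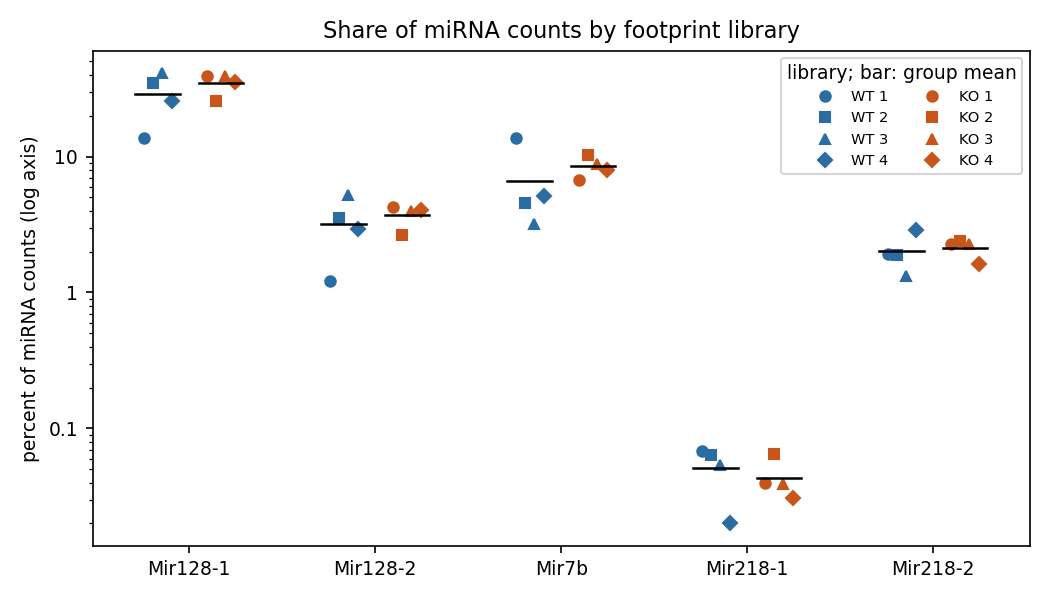
Share of the miRNA counts (percent, log axis) held by each of the 5 loci in each of the 8 footprint libraries; bars are group means. Mir128-1 is highest in 7 of 8 libraries, Mir7b matches it in WT library 1 at 13.7%, and Mir218-1 stays below 0.07% throughout.

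The counts were spread unequally over the copies of each family. Mir128-1 held 91.9%, 90.8%, 88.7% and 89.8% of the counts on both miR-128 loci in WT and 90.2%, 90.7%, 90.7% and 89.7% in KO. The hairpins are 70 and 76 bases long, and the part of length or of read placement in this split was not tested. Although the level of Mir128-1 varied widely, its ratio to Mir128-2 stayed between 7.89 and 11.3. The split was 90.3% ± 1.35 in WT and 90.3% ± 0.495 in KO (SD, n = 4 each, exact two-sided permutation p = 1.0, for which 0.0286 is the smallest value the design allows).

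Mir218-2 held 96.6%, 96.8%, 96.0% and 99.3% of the counts on both miR-218 loci in WT and 98.3%, 97.3%, 98.3% and 98.1% in KO. Both hairpins are 110 bases long. The ratio of Mir218-2 to Mir218-1 ranged from 24.3 to 143, with the highest in WT library 4, which had the highest share of Mir218-2 and the lowest of Mir218-1. The split was 97.2% ± 1.46 in WT and 98.0% ± 0.455 in KO, a difference within the spread (SD, n = 4 each, exact two-sided permutation p = 0.314). Mir7b held 99.3% to 99.6% of the counts on the 3 miR-7 loci in every library. Its mature sequence differs from miR-7a-5p, but miR-7a-5p is identical at Mir7-1 and Mir7-2. How reads that fit both of those loci were counted is not known. The miR-7 split is therefore no measure of miR-7b against miR-7a in the tissue.

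**Figure D2:**
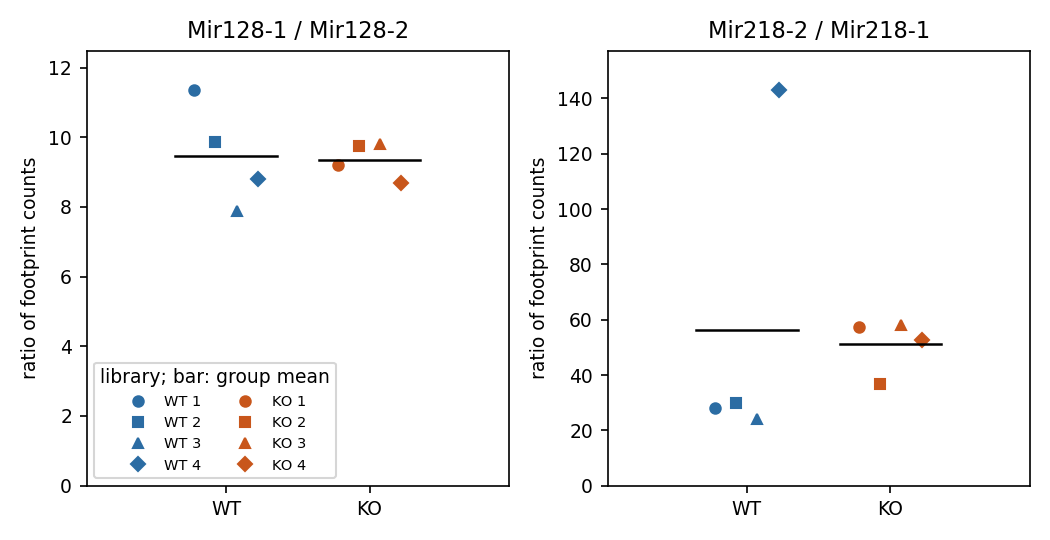
Ratio of footprint counts between the copies of miR-128 (left) and miR-218 (right) in each library, with linear axes from 0; bars are group means. The miR-128 ratio stays between 7.89 and 11.3, and WT library 4 stands apart for miR-218 at 143.

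Loci whose mature arm recurs elsewhere were a minority in the reference and held a large share of the counts, nearly all of it on miR-128 and miR-218. Of the 1036 loci with a reference entry, 95 had an arm that recurs in another locus, and these held 41.5% ± 9.85 of the miRNA counts (SD, n = 8). The 4 miR-128 and miR-218 loci alone held 37.3% ± 10.3. The other 91 held 4.17% ± 1.82, 34 of them with any count and most of it on Mirlet7f-2. The 927 loci with single-copy arms held 55.2% ± 8.23.

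The KO and WT footprint libraries were compared with edgeR's quasi-likelihood test over 8476 genes, with Benjamini-Hochberg adjustment. No member passed an adjusted p under 0.05 (0 of 5), and 0% of all genes tested did. At an unadjusted p under 0.05 there were 468 genes, 5.52% of those tested, and 0 of the 5. The groups did not overlap in 0 of the 5 loci, against 3.61% of all genes and 1.1% of the 181 miRNA loci tested. DESeq2, run as an alternative, called 4 genes (0.0472%), all higher in KO, and 0 of the 5 loci. Levels here are CPM of the TMM library size, a scaling that sets most genes level between libraries.

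Mir7b had the largest fold change of the 5. Its level was 21463, 14399, 22487 and 28297 CPM in WT and 61540, 17283, 49139 and 54100 CPM in KO. KO libraries 1, 3 and 4 lay above every WT library, but KO library 2 did not, and all 4 did so for 1.57% of the genes tested. The log2 fold change was 1.07 ± 0.53 (SE, 95% interval −0.08 to 2.22, edgeR adjusted p = 0.881). It was 1.35 without KO library 2 and 0.35 when libraries were scaled on miRNA counts in place of all genes.

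Mir7-1 and Mir7-2, which carry the same seed, also had positive values. Mir7-1 went from 81.6 ± 21.3 CPM in WT to 127.7 ± 47.8 in KO (SD, n = 4 each, log2 fold change 0.62 ± 0.28 SE, edgeR adjusted p = 0.881). Mir7-2 went from 43.3 ± 22.3 to 103 ± 48.1 CPM (1.23 ± 0.41, edgeR adjusted p = 0.863). Neither passed the threshold, the groups overlapped for each, and KO library 2 was the lowest KO library for both. Both were among the 18 of 181 miRNA loci tested (9.94%) with an unadjusted p under 0.05.

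Mir128-1 was at 21457, 109771, 288226 and 142746 CPM in WT and at 356264, 43426, 215632 and 237676 CPM in KO. The spread within each group exceeded the difference between them, and WT library 1 and KO library 2 were the lowest of their groups. The log2 fold change was 0.60 ± 0.96 (SE, 95% interval −1.46 to 2.66, edgeR adjusted p = 0.964). Mir128-2 followed the same order of libraries, at 0.49 ± 0.76 (−1.14 to 2.12, adjusted p = 0.964). These intervals allow changes of either sign, larger than the value itself.

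Mir218-2 was at 3020, 5978, 9256 and 16003 CPM in WT and at 20804, 4013, 12643 and 10862 CPM in KO, and its log2 fold change was 0.50 ± 0.55 (SE, adjusted p = 0.940 by edgeR). Mir218-1 lay between 108 and 381 CPM in WT and between 109 and 362 CPM in KO, with WT library 3 and KO library 1 the highest. Its log2 fold change was 0.15 ± 0.40 (edgeR adjusted p = 0.983). WT and KO overlapped over most of the range of both loci. The sign for Mir218-1 turned to −0.24 when libraries were scaled on miRNA counts, a scaling that moved the median of all genes to −0.31.

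All 5 loci had a positive log2 fold change under the scaling on all genes, as did 114 of the 181 miRNA loci tested, whose median was 0.20, while the median of all genes tested was −0.00. The miRNAs' share of all counts, 23.0% to 60.3% by library, enters each of these values, and its part in them was not tested.

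**Figure D3:**
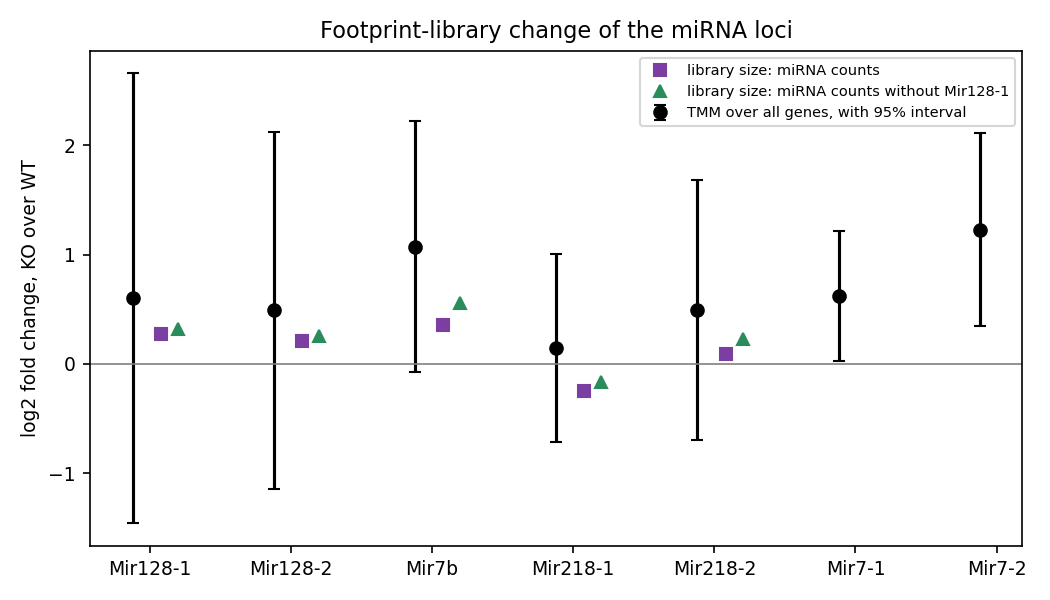
Log2 fold change of KO over WT in the footprint libraries for the 5 loci and the other miR-7 loci. Black points are edgeR values with TMM library sizes and 95% intervals; squares and triangles show the 5 loci with libraries scaled on miRNA counts, with and without Mir128-1. Mir7b falls from 1.07 to 0.35 with the miRNA scaling and Mir218-1 changes sign.

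Across the 8 footprint libraries, the log2 CPM of Mir128-1 and Mir128-2 had a Pearson r of 0.998, given as a description since the libraries share depth and read placement. Among the 120 other miRNA loci with a mean of at least 100 counts, Mir543 (0.985) and Mir501 (0.975) came next for Mir128-1. Mir7b was most like Mir423 (0.92), Mir92b (0.899) and Mir375 (0.889). Mir218-2 was most like Mir222 (0.987), Mir541 (0.986) and Mir139 (0.977). Mir218-1 was most like Mir148a (0.912), Mirlet7f-2 (0.872) and Mir1298 (0.858), and its r with Mir218-2 was 0.562. Between the 5 loci, the lowest r was 0.435, between Mir7b and Mir218-1.

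The host genes were read out in the mRNA libraries, which the choice of loci did not use. R3hdm1, which encodes an RNA-binding protein and hosts Mir128-1, was at 147, 157, 198 and 141 CPM in WT and at 174, 192, 190.2 and 164 CPM in KO. The groups overlapped through WT library 3 (log2 fold change 0.16 ± 0.11 SE, edgeR adjusted p = 0.621). Arpp21, which encodes a phosphoprotein of striatal and cortical neurons and hosts Mir128-2, was at 304, 646, 482 and 528 CPM in WT and at 497, 408, 365 and 682 CPM in KO, with overlapping ranges (−0.01 ± 0.23, adjusted p = 0.995). In WT library 1 Arpp21 mRNA was the lowest of the 8, as were the footprint counts of both miR-128 loci. KO library 2, the next lowest for miR-128 in CPM, was not the next lowest for Arpp21, which was KO library 3.

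Slit2, a secreted axon guidance ligand that hosts Mir218-1, was at 50.3, 32.1, 28.9 and 31.4 CPM in WT and at 39.1, 33.8, 41.1 and 34.1 CPM in KO (0.05 ± 0.16, edgeR adjusted p = 0.937). Slit3, its relative that hosts Mir218-2, was at 34.1, 37.3, 33.2 and 25.4 CPM in WT and at 31.7, 23.2, 41.4 and 31.2 CPM in KO (−0.03 ± 0.17, adjusted p = 0.964). Neither mRNA separated the groups. While Mir218-2 had 24.3 to 143 times the counts of Mir218-1, the 2 host genes had similar mRNA counts, 4248 for Slit3 and 4819 for Slit2 over the 8 libraries, not divided by length.

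Of the 4 host genes, 0 passed in mRNA, where 0% of the 13058 genes tested passed with edgeR and 0.574% with DESeq2. In the footprint libraries Slit3 was at 59.5, 52.7, 54.2 and 46.4 CPM in WT and at 37.9, 44.3, 30.8 and 40.2 CPM in KO, without overlap, as for 3.61% of the genes tested, from 16 to 170 counts per library. Its footprint log2 fold change was −0.44 ± 0.18 (edgeR adjusted p = 0.875), opposite in sign to that of Mir218-2 within it. R3hdm1 footprints were at 51.3 ± 7.67 CPM in WT and 67.3 ± 15.7 in KO (0.37 ± 0.19, edgeR adjusted p = 0.881), and those of Arpp21 (−0.02 ± 0.16) and Slit2 (0.21 ± 0.27) also did not pass.

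**Figure D4:**
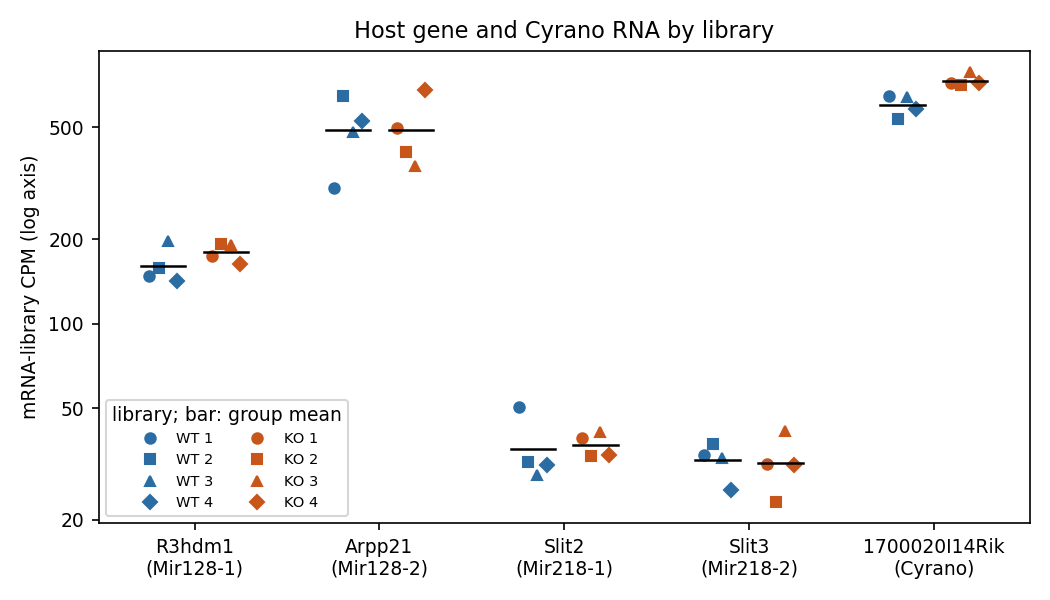
CPM in the mRNA libraries (log axis) of the host genes of the miR-128 and miR-218 loci and of the Cyrano RNA, by library; bars are group means, and levels are not per length, so they compare libraries within a gene. The WT and KO libraries overlap for the 4 host genes, and all 4 KO libraries lie above WT for Cyrano.

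Cyrano, listed as 1700020I14Rik, is a long noncoding RNA with a nearly perfect site for miR-7 that leads to decay of the miRNA. Its mRNA-library level was 646, 538, 643 and 579 CPM in WT and 719, 710.1, 787 and 721 CPM in KO. All KO libraries lay above all WT libraries, as for 2.85% of the genes tested in mRNA, while 5.59% did not overlap in either direction. The log2 fold change was 0.29 ± 0.07 (SE, edgeR adjusted p = 0.337), and in the mRNA libraries 1377 genes (10.5%) had an unadjusted p under 0.05. Zswim8, the ubiquitin ligase receptor through which such decay runs, was at 98.1 ± 9.40 CPM in WT and 101 ± 2.94 in KO (0.05 ± 0.08, adjusted p = 0.873). In footprints both lay below 0, Cyrano at −0.30 ± 0.26 (adjusted p = 0.924) and Zswim8 at −0.16 ± 0.17 (adjusted p = 0.939 by edgeR). The summed neuron markers were also higher in KO mRNA without overlap, and their part in the Cyrano value was not tested. Of the 5 markers, 4 lay above 0 in mRNA, from Snap25 at 0.36 ± 0.07 to Stmn2 at 0.01 ± 0.09. Map2 was at −0.05 ± 0.12. In footprints 1 of the 5 lay above 0 and 4 below.

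Of 20 genes for miRNA processing and loading, 18 were tested in mRNA and 0 passed in either direction, with 13 values above 0 and a median log2 fold change of 0.04 (all genes, −0.01). Those with the lowest p were Tnrc6a, a scaffold of the silencing complex (−0.12 ± 0.08), Tnrc6c (0.09 ± 0.07), Tut4, which adds uridines to miRNA precursors (−0.12 ± 0.10), and Dgcr8, the partner of Drosha (0.12 ± 0.11). In footprints 16 were tested and 0 passed, with 11 above 0 and a median of 0.22, which became −0.039 with libraries scaled on miRNA counts and 0.12 without WT library 4. Tnrc6b (0.40 ± 0.23), Drosha (0.37 ± 0.24), Dicer1 (0.55 ± 0.37) and Ago2 (0.40 ± 0.29) had the lowest p there, each with an edgeR adjusted p of 0.881 or 0.892.

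Reported targets of the 3 miRNAs, listed from general knowledge and not from sites in these data, were read out in mRNA. Of 16 listed for miR-128, 0 passed, 7 lay above 0 and 9 below, with a median of −0.00. Snap25, a synaptic vesicle fusion protein that also marks neurons, was at 2347, 2165, 2461 and 2439 CPM in WT and at 3135, 3187, 2955 and 2768 CPM in KO. It did not overlap between the groups, as for 5.59% of the genes tested in mRNA, and had the lowest p of the list (0.36 ± 0.07, edgeR adjusted p = 0.270). Wee1, a kinase that delays mitosis, was at 0.29 ± 0.09 (edgeR adjusted p = 0.367), the growth factor Csf1 at −0.24 ± 0.11 (0.465) and the stress kinase Mapk14 at 0.13 ± 0.06 (0.479). Wee1 and Mapk14 also did not overlap between the groups, while Csf1 did. In footprints, 9 of these genes were tested. Reln, a secreted protein of neuronal layering, had the lowest p (0.49 ± 0.16, edgeR adjusted p = 0.863), without overlap, as for 3.61% of all genes tested there.

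Of 15 genes listed for miR-7, 14 were tested in mRNA and 0 passed, with 10 above 0 and a median of 0.10. Pak1, a kinase of the actin cytoskeleton, was at 528, 455, 525 and 506 CPM in WT and at 619, 609, 607 and 568 CPM in KO (0.25 ± 0.07, edgeR adjusted p = 0.337). Its groups did not overlap, as for 5.59% of the genes tested in mRNA. Klf4 (0.51 ± 0.26) and the insulin signalling adaptor Irs2 (0.19 ± 0.12) had positive values whose groups overlapped. In footprints 12 were tested, 0 passed and 5 lay above 0, with a median of −0.02.

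Of 11 genes listed for miR-218, 9 were tested in mRNA and 0 passed, with 5 above 0 and a median of 0.03. The axon guidance receptors Robo1 and Robo2, which bind the Slit proteins, were at −0.13 ± 0.10 and 0.18 ± 0.10 (SE, edgeR adjusted p = 0.680 and 0.547). The glutamate transporter Slc1a2 was at 0.09 ± 0.08 and the netrin receptor Dcc at −0.11 ± 0.14. In footprints 8 were tested, 0 passed and 6 lay above 0, with a median of 0.15. Robo1 was at 0.42 ± 0.24 there (edgeR adjusted p = 0.881). Robo2 was at 48.8 ± 2.45 CPM in WT and 37.1 ± 8.14 in KO (−0.36 ± 0.19, edgeR adjusted p = 0.881). Its groups did not overlap, as for 3.61% of the genes tested in footprints.

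**Figure D5:**
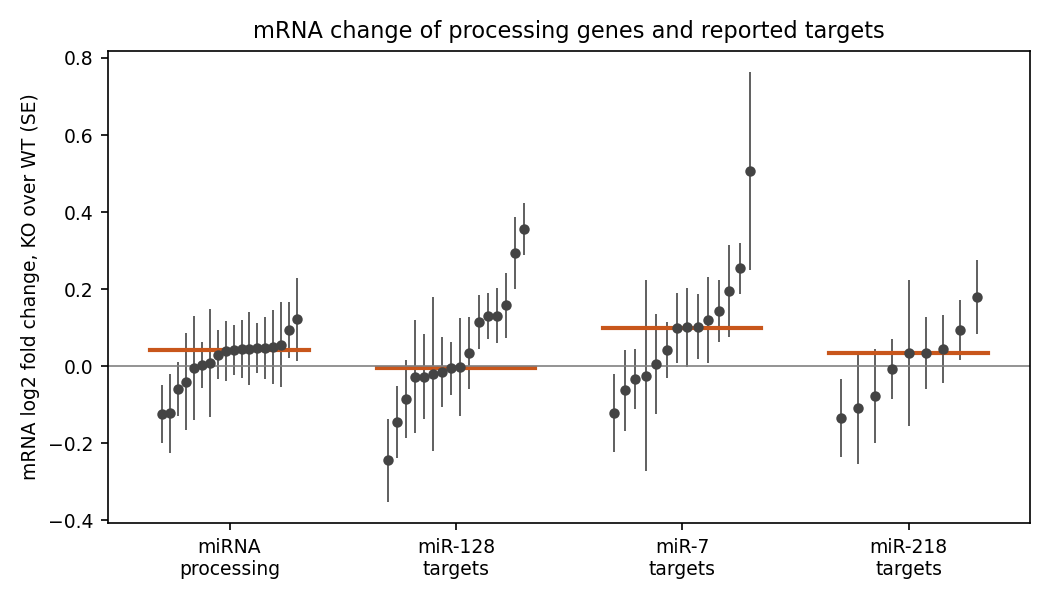
Log2 fold change of KO over WT in the mRNA libraries (points, with SE) for the miRNA processing genes and the listed targets of each miRNA, ordered by value within a list; orange bars are medians. No gene passed the threshold, and the medians lie at 0.04, −0.00, 0.10 and 0.03.

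Genes of the tissues in which miR-7 and miR-218 are best known differed between libraries. The hypothalamic genes summed to 391, 360, 283 and 217 CPM of the library total in WT and to 180 to 221 in KO. All 7 tested in mRNA had values below 0 and 0 passed, with a median of −2.38, which became −0.21 without WT libraries 1 and 2 and −5.15 without KO library 1. In footprints 3 were tested, 2 lay above 0 and 0 passed, with a median of 1.42. The vasopressin gene Avp was at 9.60 ± 6.90 CPM in WT footprints and 32.3 ± 9.35 in KO (1.77 ± 0.54, edgeR adjusted p = 0.863). Its groups did not overlap there, as for 3.61% of the genes tested in footprints. The footprint level was as low as 0.930 CPM in WT library 2. The sign was opposite to that of the Avp mRNA value of −4.43 ± 1.02 (edgeR adjusted p = 0.337). In mRNA Avp was at 14.9, 17.3, 43.0 and 0.572 CPM in WT and at 2.33, 0.593, 0.374 and 0.228 CPM in KO. There the groups overlapped through WT library 4. Mir7b in the footprint libraries had its lowest CPM in WT library 2 and KO library 2. The motor neuron genes summed to 14.6 to 39.8 CPM in WT and 7.11 to 32.2 in KO, with 4 tested and a median of −0.75 (−1.27 without KO library 4 and −0.27 without a filter on low values). How far the part of the brain taken for each library bears on the miRNA values was not tested.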

How the data were processed

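The deposited gene table holds raw counts per gene, made by the authors for 8 footprint and 8 mRNA libraries, and the deposited mRNA RPKM table was used only to choose genes. The submitters' processing notes name TopHat2 and mm10. The counting program, its treatment of reads that fit several loci, and size filters are not given in the sources used here. The members and gene lists were chosen with earlier results of these data known, so list directions are not independent evidence. Named genes were the members, loci sharing a seed, host genes, the 10 highest miRNA loci, the 3 most alike per member and up to 4 per list with the lowest p.

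The edgeR package (version 4.0.16, R 4.3.3) fitted each kind of count (TMM, quasi-likelihood, no covariates), footprints after filterByExpr with its minimum count of 10 and mRNA at a mean RPKM of at least 1. SE is the log2 fold change over the root of its F statistic, and log2 CPM had a prior count of 2. Alternatives were DESeq2 1.42.0, no filter, other library sizes, a replicate block and leaving out libraries. Same-number WT and KO libraries deviated with correlations of −0.247 to 0.075 in footprints and −0.238 to 0.0309 in mRNA, so the numbers were not used as pairs. Both fits were tested on simulated counts with known fold changes, over all genes and not miRNA loci alone. The 1.5-fold and 3-fold changes were all increases in KO, and the 2-fold and 4-fold changes all decreases. At the threshold the footprint fit recovered 8% of the 1.5-fold and 82% of the 3-fold increases. It recovered 26% of the 2-fold and 82% of the 4-fold decreases. The mRNA fit recovered 60% and 100% of the increases and 90% and 96% of the decreases. Increases of 2-fold were not simulated. Most 1.5-fold increases and 2-fold decreases in footprints were thus missed, so the absence of calls there does not show absence of change. Some listed genes are counted but not reported by name here. Of 160 listed names, 156 had a row. Host genes were taken from coordinates in the table.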

Additional observations from a re-analysis of the deposited data

Results flagged for a closer look

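Among 48 groups of 4 libraries examined, 4 held 1 library far from the other 3, where chance gives about 1 in 20. Mir218-2 took 1.61% of the miRNA counts in KO library 4 and 2.27% to 2.38% in the other KO libraries. Mir7b held 99.6% of the counts on the miR-7 loci in WT library 3 and 99.3% to 99.4% in the other WT libraries. Slit2 mRNA was at 50.3 CPM in WT library 1 and at 28.9 to 32.1 in the other WT libraries. A230051N06Rik mRNA, the neighbour of Mir7b, was at 1.26 CPM in WT library 4 and at 2.18 to 2.33 in the other WT libraries.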

How the results depend on the processing

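The 5 loci kept an adjusted p above 0.05 in all 75 combinations of locus and alternative (lowest 0.168, for Mir7b without a filter), and 69 kept their sign. Mir218-1 turned to −0.24 and −0.17 with libraries scaled on miRNA counts with and without Mir128-1, and to −0.039 without the shallowest library of each group, an alternative added after seeing the data. It ranged from −0.19 to 0.68 without single libraries and was negative when WT library 1 or 4 or KO library 1 was left out. Leaving out 1 library at a time gave 0.89 to 1.35 for Mir7b, 0.24 to 1.23 for Mir128-1, 0.12 to 1.25 for Mir128-2 and 0.10 to 1.001 for Mir218-2. Genes called in footprints, 0 in the text, were 4 by DESeq2, 86 without a filter on low counts, 1 without the shallowest libraries, and 0 whichever single library was left out. In mRNA they were 75 by DESeq2, 24 without a filter and 0 to 2 without single libraries (2 without KO library 4). Host gene mRNA values changed sign without single libraries, from −0.21 to 0.16 for Arpp21, −0.18 to 0.10 for Slit3 and −0.036 to 0.27 for Slit2. Arpp21 also turned to 0.0095 without a filter and 0.0031 with the replicate block, and Slit3 to 0.12 without WT libraries 1 and 2, also added after seeing the data. With the replicate block Mir7b was 0.96 (adjusted p = 0.984), and the exact sign-flip p of the splits was 1.0 for miR-128 and 0.375 for miR-218, where 0.125 is the smallest possible. The block changed no call. The miR-128 split difference of 0.0214 percentage points ranged from −0.499 to 0.553 without single libraries, below 0 without WT library 3 or 4 or KO library 2 or 3, and the miR-218 difference from 0.481 to 1.57. Over all gene counts the mean shares were 15.0% (Mir128-1), 1.66% (Mir128-2), 3.07% (Mir7b), 0.910% (Mir218-2) and 0.0193% (Mir218-1). Without Mir128-1 in the denominator they were 5.35% (Mir128-2), 10.9% (Mir7b), 3.05% (Mir218-2) and 0.0699% (Mir218-1). The cause of these changes was not tested. Without the shallowest library of each group the SE of Mir128-1 was 0.98, against 0.96 with all libraries.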

Other observations

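Of the other miRNAs known from brain neurons, Mir124a-2 had 181 counts over the 8 footprint libraries, Mir124a-3 had 15 and Mir124a-1 had 0. Mir9-3 had 3420, and Mir9-1 and Mir9-2 had 0. miR-124 and miR-9 are each made from several loci with the same mature arm, as miR-128 and miR-218 are, and how reads that fit several loci were counted is not known, so these counts are no measure of miR-124 or miR-9 in the tissue. Of 10 such loci tested between the genotypes, 0 passed, 5 lay above 0 and the median footprint log2 fold change was −0.01. That median ran from −0.36 without KO library 1 to 0.50 without WT library 4, and was −0.45 with libraries scaled on miRNA counts. Mir132, an activity-regulated miRNA, had a log2 fold change of −0.28 ± 0.49 (SE, adjusted p = 0.968 by edgeR).

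Of 3 glial miRNA loci tested in footprints 0 passed, with 1 above 0 and a median log2 fold change of −0.74, which turned to 0.50 without WT library 4. Mir23a was at −0.74 ± 0.71 and Mir23b at 0.12 ± 0.55. Mir219a-2, which makes the oligodendrocyte miRNA miR-219, had 20, 84, 46 and 49 reads counted in the 4 WT libraries and 8, 9, 2 and 10 in KO. The KO libraries were shallower. Per M of the TMM library size, Mir219a-2 lay at 11.3, 26.1, 16.8 and 18.5 in the WT libraries. The KO libraries lay at 9.77, 4.75, 3.84 and 9.81. Its log2 fold change was −1.38 ± 0.41 (SE, edgeR adjusted p = 0.863). The groups did not overlap, as for 1.1% of the miRNA loci tested. Mir219a-1, the other Mir219a locus, had 0 counts, and both loci carry a mature arm that recurs elsewhere. How reads that fit several loci were counted is not known, so these counts are no measure of miR-219 in the tissue. The summed oligodendrocyte markers were lower in KO mRNA (3836 to 5441 CPM, against 6028 to 6586 in WT). Their part in the Mir219a-2 value was not tested.

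A230051N06Rik, the noncoding RNA that ends 182 bases before Mir7b and was singled out after its position was seen, had 241 mRNA counts over the 8 libraries and changed by −0.29 ± 0.29 on the log2 scale (SE, edgeR adjusted p = 0.763).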
